A study of Mus musculus with 6 samples.

Results

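The miR-17-92 cluster is a group of miRNAs that are cut from 1 long primary transcript, that of the host gene Mir17hg. In the nucleus Drosha releases the hairpins from this transcript, and in the cytoplasm Dicer cuts each hairpin into its mature strands, so that every member needs Dicer. The cluster is a known target of MYC that promotes proliferation and cell survival, and in vascular biology it is known above all for miR-92a, which represses the flow-induced transcription factors KLF2 and KLF4 in endothelial cells (ECs). Its mature miRNAs were examined here in the aorta of mice with a Dicer deletion in ECs, namely miR-17, miR-18a, miR-19a, miR-19b, miR-20a and miR-92a. They were picked by name, as the mouse assays that carry exactly these names, and all 6 were found among the 596 mouse miRNA assays of the table.

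The arrays compared 3 EC-Dicerflox with 3 EC-DicerWT mice. EC-Dicerflox mice carried VE-Cadherin-CreERT2, loxP-flanked Dicer1 alleles (flox/flox) and no functional Apoe (Apoe-/-). Their EC-DicerWT littermates carried the same Cre and the same Apoe deficiency with Dicer1 WT/WT. All mice received tamoxifen (2 mg per 20 g body weight, 5 consecutive days), which activates the Cre, and then a high-fat diet (21% fat, 0.15% cholesterol) for 4 weeks, from an age of 6 to 8 weeks; the labels call the mice male and the paper calls them female. The Cre is driven by the promoter of VE-cadherin, a junction protein of ECs, so that the deletion was aimed at ECs and not at the other cells of the aorta. RNA of the whole aorta was measured, and fewer cells of a type and less RNA per cell cannot be told apart. The knockout itself could not be checked on these cards, because Dicer1 is an mRNA. The measured value is the CT, the PCR cycle at which an assay's fluorescence crosses a threshold. A higher CT means less RNA, 1 cycle equals a 2-fold difference where every PCR cycle doubles the product, and wells with no signal are listed at 40.

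The mature sequences are shown because they decide which assays can be told apart. They are those of RefSeq (GRCm38.p6), matched by name for 6 of 6 members, written 5′ to 3′ in the order of the hairpins along the transcript, with the seed (bases 2 to 8, the part that pairs with target mRNAs) in capitals.
miR-17: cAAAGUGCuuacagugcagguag
miR-18a: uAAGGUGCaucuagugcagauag
miR-19a: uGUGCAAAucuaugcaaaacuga
miR-20a: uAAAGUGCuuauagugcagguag
miR-19b: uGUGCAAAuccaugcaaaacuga
miR-92a: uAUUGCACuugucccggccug
The 6 hairpins lie within 836 bases of the plus strand, at chr14:115043671-115044506. The members hold 4 seeds. MiR-17 and miR-20a share AAAGUGC and are identical at 21 of 23 positions, and they are known to repress cell cycle regulators such as E2F1. MiR-19a and miR-19b share GUGCAAA and differ at 1 position (U11C, counted from the 5′ end of miR-19a). MiR-18a, with the seed AAGGUGC, is known to repress connective tissue growth factor, and miR-92a has the seed AUUGCAC.

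A related cluster of 6 hairpins lies on the minus strand at chrX:52741693-52742567, and it holds a further copy of miR-19b and of miR-92a with the same mature sequence. The assays of miR-19b and miR-92a therefore read both loci together, while miR-17, miR-18a, miR-19a and miR-20a have 1 locus each in RefSeq. The closest relatives of miR-17 and miR-20a are shown because their assays stand beside those of the members below.
miR-106a (chrX): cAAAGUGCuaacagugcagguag
miR-20b (chrX): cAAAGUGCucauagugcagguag
miR-93 (chr5): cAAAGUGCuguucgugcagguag
MiR-106a differs from miR-17 at 1 position (U10A), and miR-20b differs from miR-20a at 2 positions (U1C and U10C).

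All 6 members were detected in all 6 aortas, and their CT values spanned 18.4 to 30.3. The assays of the smooth muscle miRNAs miR-145 (14.7 to 14.96) and miR-143 (16.9 to 18.1) and of the endothelial miR-126-3p (17.1 to 19.1) had low CT values, so that markers of the labelled tissue were present. The aortas with replicate number 3 stood apart in both groups. The median CT of the 350 miRNAs detected in all samples was 28.2 in EC-Dicerflox 3 and 27.5 in EC-DicerWT 3, against 26.4 to 26.8 in the other 4. CT values of U6 were 0.534 cycles higher and those of snoRNA135 1.62 cycles higher in the number 3 samples than in the other 4, so that the control RNAs did not shift alike. The members' genotype estimates, a summary of their co-variation and the likeness ranking are given with and without these samples, here or under the dependence on processing.

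MiR-19b had the lowest CT of the cluster, with 18.96, 18.35 and 20.37 in EC-Dicerflox and 18.84, 19.03 and 20.53 in EC-DicerWT replicates 1, 2 and 3. For miR-17 the CT was 21.2, 20.6 and 22.4 in EC-Dicerflox and 20.9, 21.0 and 22.1 in EC-DicerWT mice. MiR-92a had CT values of 21.0, 20.4 and 22.9 and of 20.7, 20.8 and 22.8, respectively. In these 3 miRNAs the number 3 aorta was the highest CT of each group, and the groups overlapped. For miR-20a the CT was 22.5, 21.9 and 23.8 in EC-Dicerflox and 22.0, 22.9 and 23.4 in EC-DicerWT mice. MiR-19a was detected at 24.9, 24.1 and 26.8 and at 24.3, 25.3 and 26.0, respectively. MiR-18a had by far the highest CT values, with 28.2, 27.8 and 30.3 in EC-Dicerflox and 27.2, 28.0 and 29.8 in EC-DicerWT mice. Here too, the groups overlapped and number 3 was the highest of each group.

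**Figure D1:**
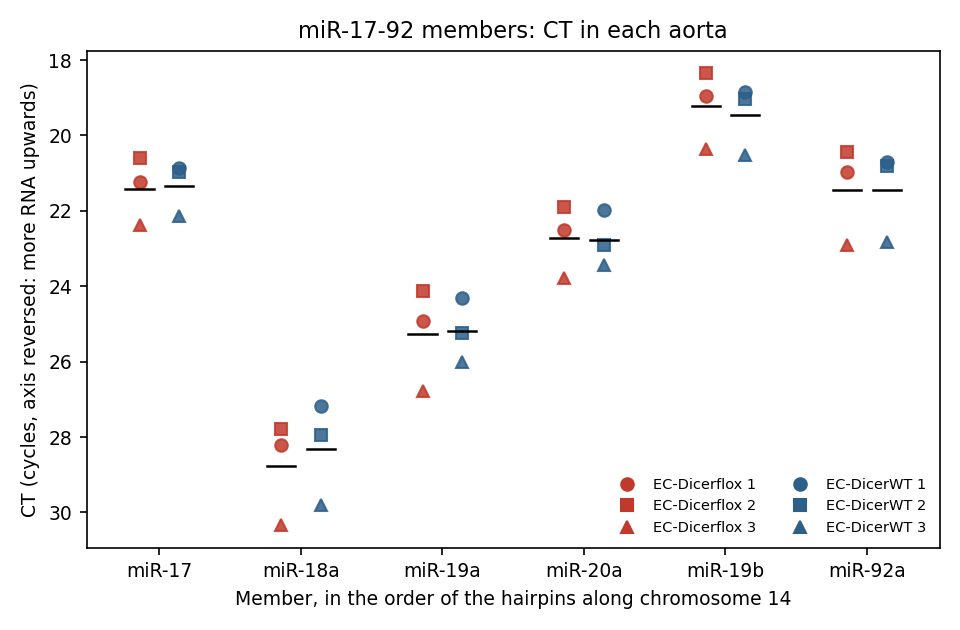
CT of the 6 members (y axis, cycles, reversed so that more RNA is upwards) in each of the 6 aortas, in the order of the hairpins on chromosome 14 (x axis); red, EC-Dicerflox; blue, EC-DicerWT; marker shape, replicate number; black bars, group means (n = 3). The members lie between 18.4 and 30.3 cycles, the CT neither rises nor falls steadily along the transcript, and the groups overlap for every member. Equal efficiency of the assays was not tested.

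The order of the levels from low to high CT was miR-19b, miR-17, miR-92a, miR-20a, miR-19a and miR-18a. Because the CT of 2 assays of the same sample shares its input, neighbours in this order were compared by their CT difference over the 6 aortas (exact sign-flip test, two-sided, adjusted over the 5 neighbours). MiR-17 was 2.02 ± 0.24 cycles (SD, n = 6) above miR-19b, miR-20a 1.30 ± 0.519 cycles above miR-92a, miR-19a 2.48 ± 0.281 cycles above miR-20a, and miR-18a 3.31 ± 0.446 cycles above miR-19a. Each of these 4 steps had the same sign in 6 of 6 aortas (exact sign-flip p = 0.03125, the smallest possible, adjusted p = 0.0391). The order was taken from the mean levels of these same aortas, so that the test is no independent check of it. This test also takes the 6 aortas as independent. With the aortas of equal replicate number averaged, 3 values remain, all 4 steps had 1 sign in 3 of 3, and none passed (exact sign-flip p = 0.25, the lowest that 3 values allow). MiR-17 and miR-92a could not be ordered, with a difference of 0.078 ± 0.406 cycles (SD, n = 6) and miR-92a at the higher CT in only 2 of 6 aortas (exact sign-flip p = 0.656). With any 1 aorta left out, the same 4 steps kept 1 sign throughout, but an exact sign-flip test of 5 samples cannot go below p = 0.0625. From end to end, the CT of miR-18a minus that of miR-19b was 9.20 ± 0.547 cycles (SD, n = 6), which is 587-fold if both assays amplified completely and equally. That the assays have equal efficiency was not tested, so that this is an order of assays, and miR-19b and miR-92a also hold the product of chromosome X.

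The assays of 2 near-identical members, miR-19a and miR-19b, lay far apart. These miRNAs differ by 1 base, and the CT of miR-19a was 5.89 ± 0.388 cycles (SD, n = 6) above that of miR-19b, with a range of 5.47 to 6.42 cycles. This is a gap between 2 assays of untested efficiency, and that of miR-19b also reads its copy on chromosome X. By contrast, the assays of miR-17 and miR-106a, which also differ by 1 base, gave almost the same CT in every aorta. The CT of miR-106a minus that of miR-17 was 0.01, -0.021 and 0.146 cycles in EC-Dicerflox and 0.032, 0.01 and 0.18 cycles in EC-DicerWT replicates 1, 2 and 3. Whether each of these assays reads its own target only was not tested, so that the values of miR-17 and miR-106a cannot be taken as separate. MiR-20b, which differs from miR-20a by 2 bases, was 2.44, 2.46 and 2.45 cycles above miR-20a in EC-Dicerflox and 2.30, 1.90 and 2.34 cycles above it in EC-DicerWT replicates 1, 2 and 3. The EC-Dicerflox values of this difference were all above those of EC-DicerWT, with means 0.271 cycles apart (two-sided exact permutation p = 0.1, which is the lowest that 3 against 3 allow, adjusted p = 0.9 over the 9 pairs of relatives and strands that were compared). It was the only one of these 9 without overlap, a share like the 11.3% found over all pairs of miRNAs.

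Each hairpin gives a second strand, called the star strand in the assay names. The table holds star assays for 5 of the 6 members. MiR-17*, miR-18a* and miR-20a* were detected in 6 of 6 aortas, miR-92a* in 1 aorta at a CT of 39.8, and miR-19a* was at 40 in all wells. MiR-17* was 8.82 ± 0.708 cycles (SD, n = 6) above miR-17, and miR-20a* was 5.62 ± 0.617 cycles above miR-20a. The strands of the miR-18a hairpin lay much closer together, with miR-18a* 0.79 ± 0.294 cycles (SD, n = 6) above miR-18a, from 0.285 to 1.10 cycles. The lowest strand difference of the other 2 hairpins was 4.80 cycles, so that the strand differences of miR-18a did not overlap with those of miR-17 or miR-20a. The star assays belong to the other set of assay numbers than the members, taken here as the other card of the array. The strand differences did not separate the genotypes (exact permutation tests, two-sided p = 0.5 to p = 1).

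**Figure D2:**
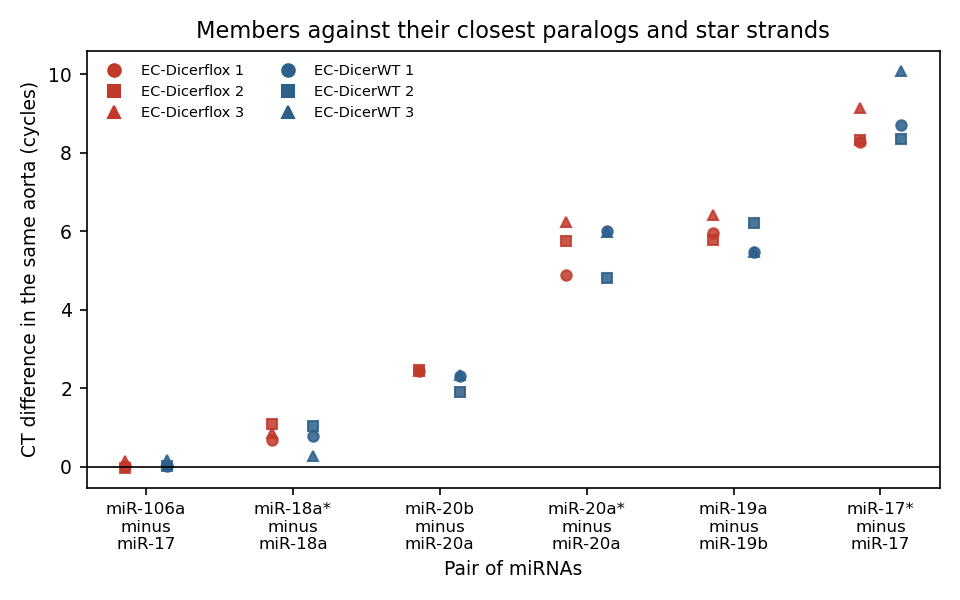
CT difference between 2 miRNAs of the same aorta (y axis, cycles) for members against their closest relatives and star strands (x axis); colours and markers as for the CT plot. MiR-106a and miR-17 lie within 0.18 cycles in each aorta, miR-18a* within 1.10 cycles of miR-18a, and miR-19a at least 5.47 cycles above miR-19b.

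For the comparison of the genotypes, the CT of each member was expressed relative to the control RNAs U6 and snoRNA135 (delta CT, the CT minus their mean in that aorta). The log2 fold change is the delta CT of EC-DicerWT minus that of EC-Dicerflox mice, so that positive values stand for more RNA in EC-Dicerflox mice. No member passed the test. The members had 0 of 6 unadjusted limma p-values under 0.05, against 14 of 461 or 3.04% of all miRNAs tested. Of all miRNAs, 9 (1.95%) were lower and 5 (1.08%) higher in EC-Dicerflox mice at this threshold, while 14 were lower and 4 higher with snoRNA202 alone as the control, and 7 and 7 with the mean of all miRNAs. At an adjusted p-value of 0.05, limma called 0 of the 461 miRNAs (0%). The values of the groups overlapped for each of the 6 members, while they did not overlap for 10.4% of all miRNAs tested (4.34% lower and 6.07% higher in EC-Dicerflox mice).

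MiR-19b had the highest estimate with all aortas. Its delta CT was -0.0457 ± 0.266 (SD, n = 3) in EC-Dicerflox and 0.346 ± 0.501 (SD, n = 3) in EC-DicerWT mice, a log2 fold change of 0.39 with a 95% interval from -0.51 to 1.29 (limma, unadjusted p = 0.318, adjusted p = 0.923). Without EC-DicerWT replicate 3, it was 0.103, no longer above that of miR-20a (0.104), and without EC-Dicerflox replicate 2 it was 0.24. MiR-18a was the only member with a lower estimate in EC-Dicerflox mice. Its delta CT was 9.51 ± 0.539 (SD, n = 3) against 9.19 ± 0.935 (SD, n = 3), a log2 fold change of -0.32 with an interval from -1.79 to 1.15 (limma, adjusted p = 0.923). Without EC-DicerWT replicate 1, which had the lowest delta CT of miR-18a (8.36), the log2 fold change of miR-18a was 0.094. MiR-92a, the member known as a repressor of KLF2 and KLF4, had a delta CT of 2.17 ± 0.478 (SD, n = 3) and 2.33 ± 0.764 (SD, n = 3). Its log2 fold change was 0.15, and the interval ran from -1.11 to 1.42 (limma, adjusted p = 0.973), which includes halving and doubling of its level. Without EC-DicerWT replicate 3, the log2 fold change of miR-92a was -0.29.

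The other 3 members had estimates nearer to 0 than miR-19b. The log2 fold change was 0.19 for miR-20a (95% interval from -0.62 to 1.01), 0.072 for miR-17 (-0.64 to 0.78) and 0.062 for miR-19a (-1.03 to 1.16), with limma adjusted p-values of 0.923, 0.973 and 0.982. Exact permutation tests of the 6 members gave two-sided p = 0.5 to p = 0.9, where the smallest possible is 0.1. With these controls the estimate was above 0 for 5 of 6 members, but for 3 with snoRNA135 alone, for 3 with the mean of 5 control RNAs, for 2 with snoRNA202 alone, for 2 without EC-DicerWT replicate 3 and for 2 without EC-Dicerflox replicate 2. The median log2 fold change of the members was 0.11 and that of all 461 miRNAs was 0.082; with snoRNA202 alone they were -0.048 and -0.079, and with U6 alone 0.197 and 0.165. Using 1 control for all assays moves all miRNAs alike, so that the distance between these medians is the same with each. It changed sign with the controls of the same card, where the medians were 0.058 for the members and 0.076 for all. It also changed sign with CT above 35 set to 35 (0.1135 and 0.1515) and without the number 3 aortas (0.061 and 0.1465). With only the miRNAs whose CT stayed below 35, it did so as well (0.1135 and 0.1207). Leaving out an aorta also moved it: the medians were 0.359 and 0.145 without EC-DicerWT replicate 1, and -0.099 and 0.019 without EC-DicerWT replicate 3.

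Of the 7 members of the paralogous clusters, miR-106a, miR-18b, miR-20b and miR-363 on chromosome X and miR-106b, miR-93 and miR-25 on chromosome 5, 0 had an unadjusted limma p-value under 0.05, and their median log2 fold change was 0.10. MiR-18b was the only one that was not detected in all samples. It was at 40 in EC-Dicerflox 1, EC-DicerWT 1 and EC-DicerWT 2, at 32.2 and 32.3 in EC-Dicerflox 2 and EC-DicerWT 3, and at 26.8 in EC-Dicerflox 3. In that aorta the CT of miR-18b was below that of miR-18a, from which it differs by 2 bases, and in the other 5 aortas it was above. The star strands had 0 of 4 tested p-values under 0.05. MiR-18a* had a log2 fold change of -0.49 (95% interval from -1.71 to 0.72; limma, adjusted p = 0.923). Its estimate was -0.12 without EC-DicerWT replicate 1, -0.20 without EC-Dicerflox replicate 3 and -0.79 without EC-DicerWT replicate 3. For miR-17* the log2 fold change was 0.54 (-1.22 to 2.30; limma, adjusted p = 0.923), and -0.15 without EC-DicerWT replicate 3.

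**Figure D3:**
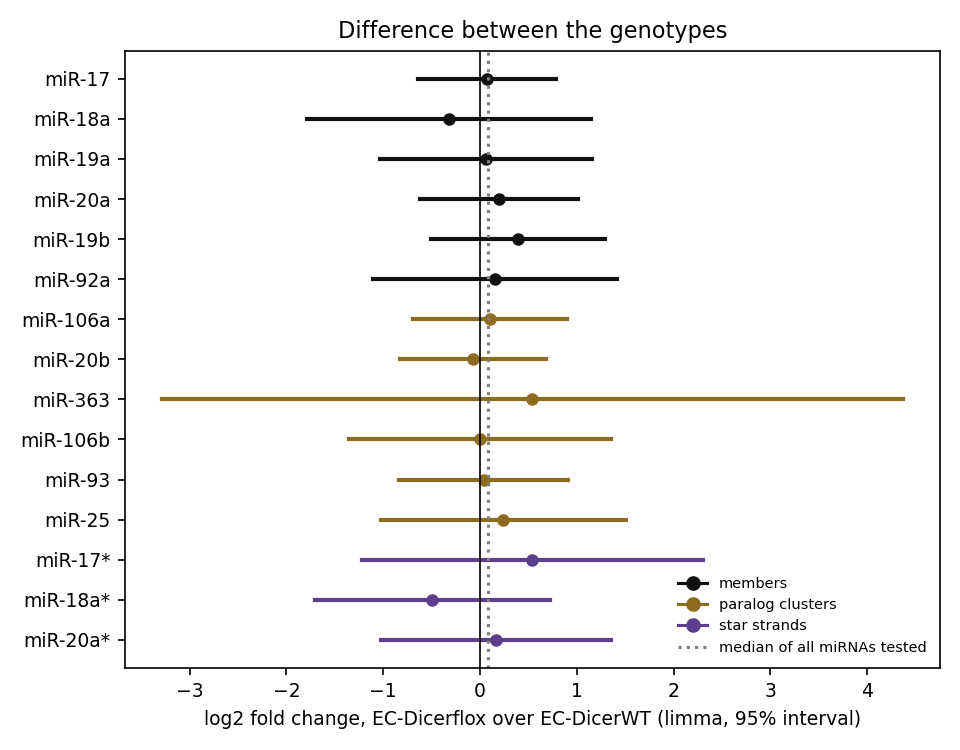
Log2 fold change of EC-Dicerflox over EC-DicerWT (x axis; points, limma estimates from delta CT; lines, 95% intervals; n = 3 per group) for the members, the paralogous clusters (miR-18b, at 40 in 3 aortas, is not drawn) and the star strands (y axis). Every interval includes 0, and the dotted line is the median of all 461 miRNAs (0.082).

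The CT difference between 2 members of the same aorta needs no control RNA and was compared between the genotypes for all 15 pairs. The differences of EC-Dicerflox from EC-DicerWT mice ranged from -0.39 to 0.714 cycles. The groups did not overlap in 1 of the 15 pairs (6.67%), no larger a share than the 11.3% of all pairs among the 350 miRNAs detected in every sample, so that this count sets nothing apart about the members. The pair was miR-18a and miR-92a, picked here for its lack of overlap, and its values are a description. The CT of miR-18a minus that of miR-92a was 7.24, 7.34 and 7.43 cycles in EC-Dicerflox and 6.46, 7.13 and 6.99 cycles in EC-DicerWT replicates 1, 2 and 3. The means differed by 0.477 cycles (exact permutation test, two-sided p = 0.1, adjusted p = 0.75 over the 15 pairs; exact sign-flip p = 0.25 with samples of equal replicate number paired). The largest difference belonged to miR-18a and miR-19b, with 9.56 ± 0.371 cycles (SD, n = 3) in EC-Dicerflox and 8.84 ± 0.479 cycles (SD, n = 3) in EC-DicerWT mice (exact permutation p = 0.2, adjusted p = 0.75). With 1 aorta left out, between 1 and 6 of the 15 pairs did not overlap, while a group of 2 makes such a split more frequent and 17.7% to 25.3% of all pairs did not overlap either. The count was 6 (against 22.2% of all pairs) without EC-DicerWT replicate 3 and 4 (26.7%, against 21.4%) without EC-DicerWT replicate 2. It was 2 (13.3%) without EC-DicerWT replicate 1, EC-Dicerflox replicate 1 or EC-Dicerflox replicate 3, against 20.1%, 19.5% and 25.3% of all pairs.

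From aorta to aorta, the members moved together more closely than 2 miRNAs of the array did at the median. The SD of the CT difference of 2 members over the 6 aortas had a median of 0.393 cycles over the 15 pairs and ranged from 0.24 to 0.611. Over all pairs of the 350 miRNAs the median was 0.86 cycles, and 13.2% of these pairs had a smaller SD than the median pair of members. That background also holds assays at high CT values and those of the other set of assay numbers. Among the 216 miRNAs of the same set of assay numbers whose CT stayed below 35 throughout, the median SD of a pair was 0.648 cycles, and 22.05% of the pairs lay below the median pair of members. All 15 pairs of members were below 0.648.

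The closest pair was miR-17 and miR-19b (0.24 cycles), followed by miR-19b and miR-92a (0.278), miR-17 and miR-20a (0.28) and miR-19a and miR-20a (0.281). MiR-18a took part in 4 of the 5 widest pairs, up to 0.611 cycles with miR-20a. It was also the member farthest from the others, with an SD of 0.462 cycles for its difference from the mean of the other 5, against 0.25 to 0.338 for the rest. These values describe 6 aortas and carry no test. Of the pairs with a shared seed, miR-17 and miR-20a were among the closest, while miR-19a and miR-19b, with an SD of 0.388 cycles, lay near the median pair. Without the number 3 aortas this order turned, with 0.357 cycles for miR-17 and miR-20a and 0.315 cycles for miR-19a and miR-19b.

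**Figure D4:**
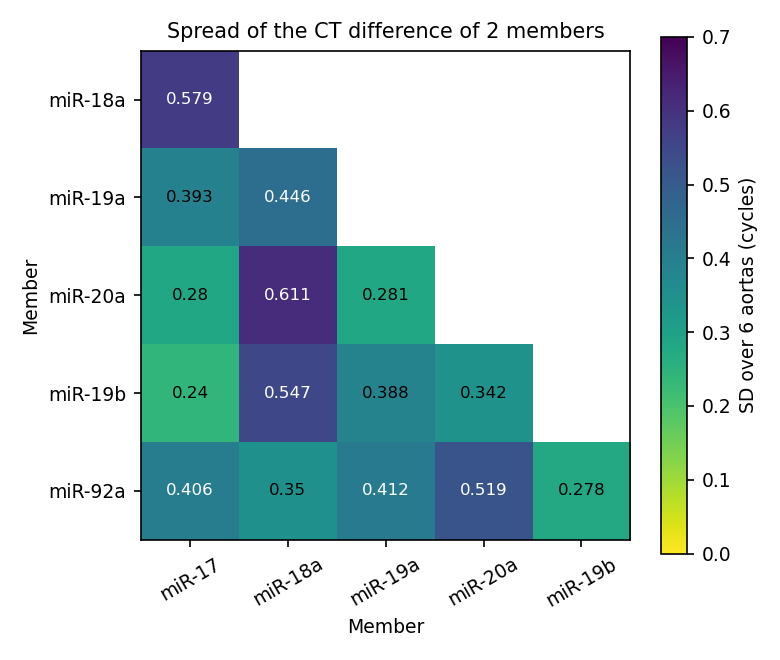
SD over the 6 aortas of the CT difference of 2 members (cycles; colour scale and printed value) for the 15 pairs, members in the order of the hairpins on both axes. The lowest value is 0.24 (miR-17 with miR-19b) and the highest 0.611 (miR-18a with miR-20a).

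Leaving out the number 3 aortas of both groups changed which pairs were closest. The median SD of the member pairs was then 0.357 cycles, against 0.629 over all pairs of the 350 miRNAs and 0.468 within the same set of assays. The share of pairs below the median pair of members rose to 23.1% over all pairs and to 34.3% within the same set, and 14 of 15 pairs of members were below the median of that set. In the remaining 4 aortas, the CT of miR-17 minus that of miR-92a was 0.26, 0.154, 0.15 and 0.161 cycles, an SD of 0.0527. In EC-Dicerflox 3 and EC-DicerWT 3 it was -0.524 and -0.669 cycles. Likewise, the SD for miR-19a and miR-20a was 0.0674 cycles without number 3. The CT of the members rose unequally in the number 3 aortas, by 1.28 cycles for miR-20a, 1.35 for miR-17, 1.66 for miR-19b, 1.75 for miR-19a, 2.13 for miR-92a and 2.29 for miR-18a relative to the mean of the other 4. Over all miRNAs detected in every sample, the median CT was 1.15 cycles higher there. Over those of the members' set of assay numbers it was 1.32 cycles higher, between the rises of miR-20a and miR-17. The relatives with the seed of miR-17 rose by 1.40 (miR-20b), 1.50 (miR-106a), 1.55 (miR-93) and 2.09 cycles (miR-106b), and miR-25, with the seed of miR-92a, rose by 2.04 cycles. MiR-363, also with the seed of miR-92a, was 1.29 cycles higher on average, but its number 3 aortas went opposite ways. Its CT was 33.2 in EC-DicerWT 3, the highest of that group, and 29.1 in EC-Dicerflox 3, the lowest of that group. The median CT, the control RNAs and the members were all higher in these aortas, and the part of the first 2 in the unequal rise was not tested.

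On the delta CT scale, miR-92a split the aortas, with 2.69 and 3.21 in the number 3 samples and 1.74 to 2.09 in the other 4, so that no correlation over samples is given for it. For the other 10 pairs, Pearson's r over the 6 aortas was positive in 10 of 10, from 0.502 to 0.877, with a median of 0.632. All pairs of the 350 miRNAs had a median of 0.0771 on this scale, and delta CT values share the control RNAs. These pairs also hold assays at high CT values and those of the other set of assay numbers. For r, no background within the members' own set was computed. The strongest relation was that of miR-17 and miR-19b (r = 0.877, exact permutation p = 0.0139, adjusted p = 0.139 over 10 pairs; Spearman's rho = 0.714, exact permutation p = 0.136; r = 0.924 without the 2 samples farthest from the median). MiR-19a and miR-19b had the highest rho (0.943, exact permutation p = 0.0167, adjusted p = 0.167; r = 0.632, exact permutation p = 0.182), and their r was 0.298 without the 2 farthest samples. No pair passed an adjusted p-value of 0.05. Without the 2 farthest samples, r stayed above 0 in 8 of 10 pairs. It rested on those samples for miR-18a with miR-19b (from 0.632 to -0.13) and for miR-19a with miR-20a (from 0.82 to -0.059), where the samples left out were EC-DicerWT 1 and EC-Dicerflox 2; without the number 3 aortas, the r of this latter pair was 0.991. Without the number 3 aortas, the median r was 0.484. Within genotypes, as deviations from the group means, the median was 0.713.

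**Figure D5:**
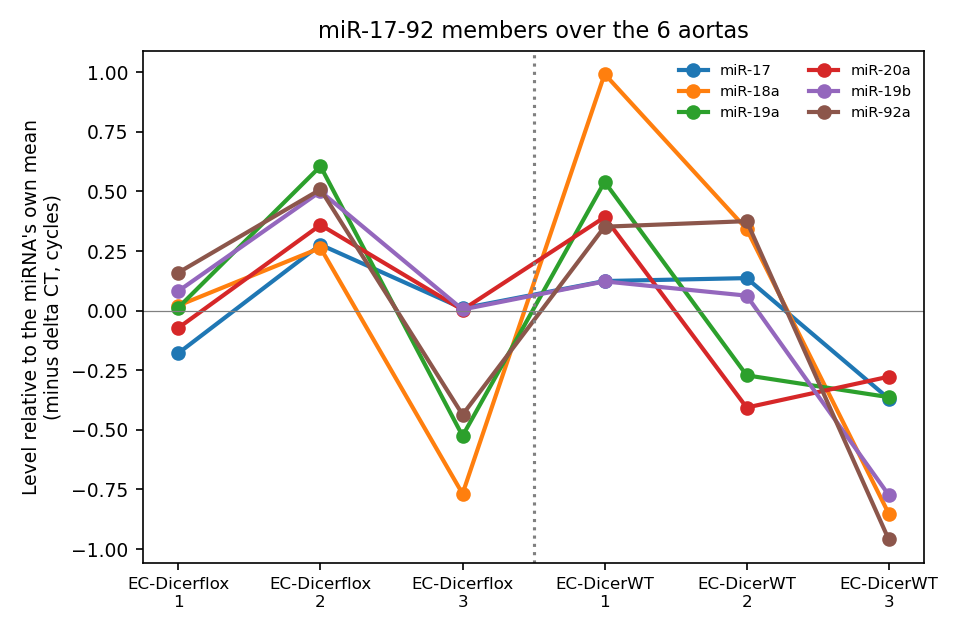
Level of each member in each aorta (y axis, minus delta CT relative to the mean of that miRNA over the 6 aortas, in cycles; x axis, aortas; coloured lines join the values of 1 miRNA and carry no order). All 6 members lie above their mean in EC-Dicerflox 2 and EC-DicerWT 1 and below it in EC-DicerWT 3, while they part in the other 3 aortas.

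The miRNAs whose CT followed the mean CT of the cluster most closely were ranked by the SD of the difference over the 6 aortas, among 344 others detected in every sample, whose median SD was 0.585 cycles. The first 5 were miR-324-3p (0.101 cycles), miR-7a (0.11), miR-93 (0.117), miR-130b (0.156) and miR-30d (0.162). MiR-93, of the paralogous cluster on chromosome 5, has the seed of miR-17. Of the other paralogs, miR-106a ranked 7, miR-20b 11, miR-25 15, miR-106b 29 and miR-363 324 of 344, and miR-18b was not ranked. The mean of the members holds miR-17, whose values cannot be taken as separate from those of miR-106a. Without the number 3 aortas, the first 5 were miR-25 (0.0243 cycles), miR-674 (0.0548), miR-93 (0.0761), miR-345-5p (0.0784) and miR-130b (0.095), against a median of 0.394, so that 2 of the first 5 were shared between the rankings. MiR-324-3p, miR-7a and miR-30d then ranked 9, 11 and 32, and of the paralogs miR-20b ranked 7, miR-106a 24 and miR-106b 72. The listed cell type markers were spread over the ranking of all 6 aortas. The endothelial miR-126-3p and miR-126-5p ranked 87 and 156, with an SD of 0.387 and 0.531 cycles. The smooth muscle miR-143 and miR-145 ranked 104 and 252, and the leukocyte markers miR-142-3p, miR-150, miR-142-5p and miR-223 ranked 119 to 250. Of the erythroid markers, miR-486 ranked 16 (0.211 cycles) and miR-451 ranked 145 (0.511 cycles). On the delta CT scale, 11 of the 13 markers detected in all aortas were set against the mean of the members, and the erythroid ones had the highest r with all aortas but not without number 3. For miR-451, Pearson's r was 0.937 (exact permutation p = 0.00694, adjusted p = 0.0764 over 11 markers) and Spearman's rho 0.943 (exact permutation p = 0.0167, adjusted p = 0.183). For miR-486, r was 0.902 (exact permutation p = 0.0319, adjusted p = 0.176) and rho 0.886 (exact permutation p = 0.0333, adjusted p = 0.183), but its number 3 samples (delta CT of 3.03 and 3.05) almost stood apart from the other 4 (1.82 to 2.44). Without the 2 samples farthest from the median, r was 0.83 and 0.805, and that of the leukocyte miR-142-3p was 0.814. Without the number 3 aortas, the r of miR-451 and miR-486 was 0.746 and 0.663, below that of miR-143 (0.936), miR-142-3p (0.84), miR-1 (0.781) and miR-133b (0.755). As for miR-92a, no r is given for the other 2 markers, whose number 3 samples stood apart. The delta CT of the smooth muscle miR-145 was -5.42 and -4.65 in them against -4.21 to -3.92 in the other 4, and that of the leukocyte miR-223 was 1.17 and 1.38 against 2.08 to 2.41. Both were thus lower there, while the delta CT of the members was higher on average, and the raw CT of miR-145 stayed within 14.7 to 14.96 while the control RNAs shifted. The endothelial miR-126-3p and miR-126-5p had an r of 0.431 and 0.511 (exact permutation p = 0.425 and p = 0.303) and a rho of 0.2 each (exact permutation p = 0.714). None of the 11 markers passed an adjusted p-value of 0.05. The striated muscle markers miR-133a, miR-133b and miR-1 ranked 58, 152 and 235, miR-208 was detected in 3 aortas and miR-208b was at 40 in all. These ranks also moved without the number 3 aortas. MiR-133b then ranked 18, miR-143 28, miR-486 38, miR-133a 44, miR-223 94, miR-142-3p 137, miR-126-3p 144 and miR-145 145. The others ranked from 196 (miR-451) to 280 (miR-150), with miR-126-5p at 257. The share of blood or other cells in these profiles was not tested.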

How the data were processed

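MiRNAs of 6 aortas (3 EC-Dicerflox, 3 EC-DicerWT) were measured with TaqMan MicroRNA array cards after reverse transcription and pre-amplification with the rodent Megaplex pools. The authors deposited the raw CT of each assay, a log2-like value, not normalized and at 40 where no signal was seen; threshold settings are not given in the sources used here. The 6 columns were matched to the samples by name, with 0 further columns holding values. The members, the lists, the tests and the likeness rule were chosen with earlier results of these data known.

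Delta CT values (U6 and snoRNA135, 4 wells) of the 461 assays that gave a signal (CT below 40) in any aorta were fitted with limma 3.58.1 in R 4.3.3 (lmFit, eBayes, Benjamini-Hochberg over all 461). Single values were compared by exact permutation or sign-flip tests (Python 3.11.15). Genes were named by rule: the 6 members, the paralogs, the star strands, cell type markers and the 5 miRNAs with the smallest SD of the CT difference from the members' mean. The pairs of relatives, and the rule that gives no r for a member or marker where both number 3 samples stand apart by more than the range of the other 4, were set after the values were seen. MiR-19b* and miR-144 were not analysed here. The RefSeq strand of each assay was taken from the older assay name, not from the assay's own sequence. The 2 sets of assay numbers (335 and 261 miRNA assays) were taken as the cards. The tests were checked on simulated data. The number of arrays, 3 per group, limits the precision, and p-values measure the spread between these mice.

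Samples of the same replicate number in the labels deviated together over 350 miRNAs (correlations of 0.15, 0.224 and 0.431 for numbers 1, 2 and 3, each over 0.1), which met the criterion for pairing, and the block is given beside the unpaired fit. The match rests on number 3: EC-Dicerflox 1 correlated more with EC-DicerWT 2 (0.285) than with EC-DicerWT 1, and EC-Dicerflox 2 correlated at 0.117 with EC-DicerWT 1. No source says that a number marks a litter or day.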

Additional observations from a re-analysis of the deposited data

How the results depend on the processing

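The members had 0 unadjusted p-values under 0.05 in all 15 alternatives and in the 6 fits that left out 1 aorta. The numbers of miRNAs at this threshold moved: 14 were lower with snoRNA202 alone; 3 were higher with U6 alone, 14 with an ordinary linear model, 8 with trend and robust moderation and 8 without number 3 of both groups (chosen after seeing the data), and 4 to 10 with 1 aorta left out. Adjusted calls numbered 0 to 2 with 1 aorta left out, 2 without EC-Dicerflox replicate 1 and 1 without EC-Dicerflox replicate 3. With the replicate number as a block, 11 miRNAs were lower and 4 higher, and no call of a member changed. Estimates changed sign as follows. With snoRNA135 alone, miR-17 was at -0.011 and miR-19a at -0.021; with snoRNA202 alone, miR-17 was at -0.089, miR-19a at -0.099 and miR-92a at -0.0063; with 5 control RNAs, miR-17 was at -0.043 and miR-19a at -0.053; without number 3, miR-17 was at -0.081 and miR-92a at -0.0295, while miR-18a (-0.525), miR-19a (0.175), miR-19b (0.199) and miR-20a (0.151) kept their sign. With 1 aorta left out, the log2 fold changes ranged from -0.094 to 0.18 for miR-17, -0.83 to 0.094 for miR-18a, -0.22 to 0.35 for miR-19a, -0.29 to 0.41 for miR-92a and -0.15 to 0.98 for miR-17*; those of miR-19b (0.10 to 0.55), miR-20a (0.039 to 0.44) and miR-18a* (-0.79 to -0.12) kept their sign. The members' median log2 fold change ranged from -0.048 to 0.197 over the alternatives and from -0.099 to 0.36 with 1 aorta left out. Pairs of members without overlap numbered 1 to 6, and neighbours in the order of levels past the threshold numbered 0 to 0, since 5 samples cannot pass it. The median r was 0.877 with U6 alone, where that of all pairs also rose, from 0.0771 to 0.484, and it was 0.484 without number 3, and 0.537 to 0.832 with 1 aorta left out, the highest without EC-DicerWT replicate 2; the cause was not tested.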
